A study of Homo sapiens with 9 samples.

Results

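The ERBB receptors and their EGF-family ligands were examined as 10 genes, the receptors EGFR, ERBB2, ERBB3 and ERBB4 and the ligands NRG1, AREG, EREG, HBEGF, TGFA and BTC. The genes were chosen by the ERBB3 signal, which was lower in GATA3 knockdown than in control cells, so the values of that contrast are a description, with no P value for a member, and nothing is read from the counts past the threshold there. All probes whose transcript accession matched 1 of these symbols in RefSeq were taken, which gave 18 of the 58201 probes on the array. RNA came from OEC-M1 cells, a line of oral squamous cell carcinoma, a form of head and neck squamous cell carcinoma (HNSCC). The study asked which genes depend on GATA3 and on HIF-1α in hypoxic cells. The cells grew in RPMI medium with fetal bovine serum, and all were kept at 1% O2 for 18 h. One-dye Agilent arrays measured total RNA 72 h after transfection with non-targeting siRNA (siControl), GATA3 siRNA (siGATA3) or HIF-1α siRNA (siHIF1A). There were 3 arrays in each of the 3 groups, numbered 1 to 3 in the labels, and the numbers were read as replicates, although the study also uses numbers to name its siRNAs. The supplement names 1 siRNA per target for the arrays, so on them an effect of the siRNA and an effect of its target cannot be told apart. The study lists ERBB3 among the genes regulated by GATA3 and HIF-1α. It also measured ERBB3 by real-time RT-PCR with more than 1 siRNA per target, which was not analysed here. All values come from 1 cell line in hypoxia, and no normoxic arrays were analysed here.

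ERBB receptors are membrane tyrosine kinases that pair up when an EGF-family ligand binds, and pass the signal to the RAS-ERK and PI3K-AKT pathways. ERBB2 has no known ligand and acts as a partner, and ERBB3 has a weak kinase and signals mainly through a partner, often ERBB2. TGFA and AREG bind EGFR, EREG, HBEGF and BTC bind EGFR and ERBB4, and NRG1 binds ERBB3 and ERBB4. The ligands are made as membrane precursors that metalloproteases of the ADAM family cut free. EGFR is often highly expressed in HNSCC and is a drug target there.

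The promoters of AREG, EREG and BTC are shown because these ligand genes lie on the same chromosome arm and yet AREG did not follow the pattern that EREG and BTC shared across the arrays. The 250 bases before the RefSeq start (GRCh38.p14, plus strand for AREG and EREG, minus strand for BTC, each 5′ to 3′) are AREG at chr4:74444886-74445135, EREG at chr4:74364895-74365144 and BTC at chr4:74794524-74794773. Capitals mark the core of a hypoxia response element (ACGTG or GCGTG on either strand), the letters that HIF-1 recognises.
AREG: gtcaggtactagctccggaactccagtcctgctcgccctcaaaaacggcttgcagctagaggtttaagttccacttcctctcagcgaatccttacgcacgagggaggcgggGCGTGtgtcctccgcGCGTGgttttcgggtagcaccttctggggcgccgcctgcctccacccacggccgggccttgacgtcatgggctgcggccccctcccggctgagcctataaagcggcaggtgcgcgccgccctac
EREG: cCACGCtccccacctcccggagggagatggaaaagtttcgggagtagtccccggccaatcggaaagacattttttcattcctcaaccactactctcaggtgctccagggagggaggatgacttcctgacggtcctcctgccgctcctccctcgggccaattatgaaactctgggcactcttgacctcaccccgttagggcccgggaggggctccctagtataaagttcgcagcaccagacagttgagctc
BTC: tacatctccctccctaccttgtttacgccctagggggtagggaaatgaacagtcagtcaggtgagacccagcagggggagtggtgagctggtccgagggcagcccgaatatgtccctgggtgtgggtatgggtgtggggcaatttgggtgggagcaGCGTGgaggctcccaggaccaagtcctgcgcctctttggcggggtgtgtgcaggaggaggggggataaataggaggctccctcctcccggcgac
AREG had 2 such matches, at 139 and 124 bases before the start, EREG had 1 at 249 and BTC had 1 at 94. Over all genes, 43.2% of 35114 windows of this length held at least 1 match. A GATA motif (AGATAA or AGATAG or TGATAA or TGATAG, both strands) was in 22.3% of the windows and in none of these 3. Of the 10 windows that RefSeq gave for 8 of the members, 5 held the hypoxia letters (ERBB4, AREG, EREG, BTC and the second TGFA window) and 1 held a GATA motif (the second EGFR window), and no hypoxia match overlapped a GATA match. A match describes letters in a short window and is no measure of binding. ERBB3 and NRG1 had no window in the table.

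The arrays differed in brightness, with a median spot intensity between 992.5 and 3560, the lowest on siControl 3, and between 74.2% and 87.6% of probes were well above the local background. The arrays lay on 3 slides, each with 1 siControl, 1 siGATA3 and 1 siHIF1A array, and arrays with the same number in the labels share a slide. The leading principal component of all genes held 53.9% of the variance, set siControl 3 (score -118.09) and siGATA3 3 (-110.99) apart from the others (-44.46 to 85.39), and had a Pearson r of 0.936 with the median intensity over the 9 arrays. For some genes, values below are therefore also given within slides, without 1 of those arrays or without both. The targeted genes were lower in their own knockdown, with a log2 difference from siControl of -1.27 (SE 0.34) for GATA3 in siGATA3 cells and of -2.32 (SE 0.35) for HIF1A in siHIF1A cells. All 5 epithelial markers (CDH1, EPCAM, KRT8, KRT18 and KRT19) and 7 of 10 squamous markers, including KRT14, KRT17 and TP63, exceeded background on each of the 9 arrays. KRT5, a keratin that defines basal squamous cells, was above background on 0 of 9 arrays and DSG3 on 1. Of 5 blood cell markers, 2 (PTPRC and CD3E) did so as well, with PTPRC at 15.22 to 16.64.

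Intensities are log2 values after background correction and quantile normalization, and a difference of 1 is a doubling of intensity. A gene was counted as past the threshold at an unadjusted P of 0.05 or less in limma, two-sided, and its value is that of its brightest probe. Levels of different probes depend on the probe and are not compared. Between siGATA3 and siControl, 1 of the 10 members, ERBB3, was past the threshold, where 2.97% of 47720 genes were. Since the choice of members used this contrast, nothing is read from that count. Between siHIF1A and siControl, 0 of 10 members passed, where 5.23% of all genes did. Between siGATA3 and siHIF1A, 0 of 10 passed, where 12.0% did. None of the 10 had an adjusted P of 0.05 or less in these comparisons. The 3 comparisons share arrays and are not independent.

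**Figure D1:**
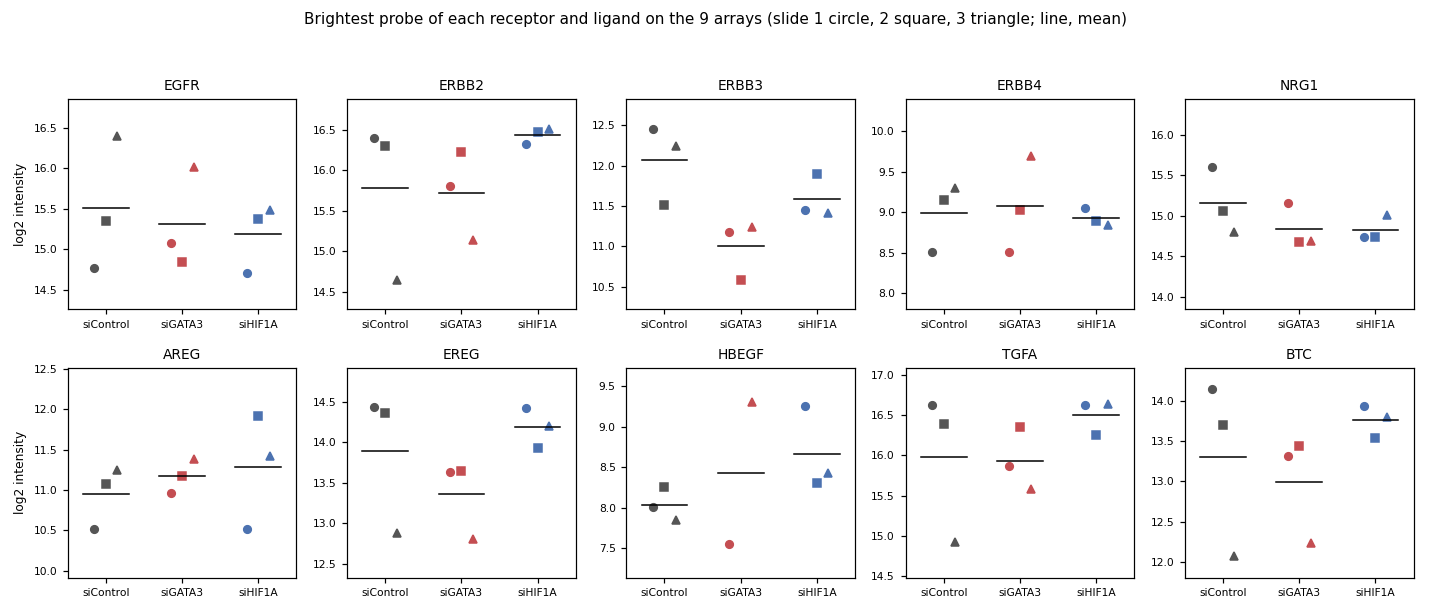
Log2 intensity of the brightest probe of each of the 10 genes (vertical axis, every panel spans the same log2 range) by group (horizontal axis), with 1 point per array, the slide as the symbol and the group mean as a line. The 3 siGATA3 points of ERBB3 lie below all 3 siControl points, whereas ERBB2, EREG, TGFA and BTC are low on siControl 3 and siGATA3 3.

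ERBB3, the kinase-weak receptor for neuregulins, was measured by 3 probes. Its brightest probe, for transcript NM_001982, read 12.46, 11.51 and 12.24 on siControl arrays 1 to 3, 11.18, 10.58 and 11.24 on siGATA3 arrays and 11.45, 11.90 and 11.41 on siHIF1A arrays. Every siGATA3 value was below every siControl value and below every siHIF1A value, while siHIF1A and siControl overlapped. The log2 difference of the siGATA3 mean from the siControl mean was -1.07 (11.00 ± 0.36 against 12.07 ± 0.50, SD, n = 3, with an SE of the difference of 0.31), a level 0.476 times that of siControl. Within slides 1, 2 and 3 the differences were -1.28, -0.93 and -1.0. This difference lay between -1.35 and -0.86 with any 1 array left out, and was -1.10 without siControl 3 and siGATA3 3. In siHIF1A cells the difference from siControl was -0.48 (mean 11.59 ± 0.27, SD, n = 3), and within slides it was -1.01, 0.39 and -0.83, so slide 2 went the other way. The order of the means was siControl, siHIF1A, siGATA3, and the neighbours siControl and siHIF1A overlapped. The difference of siGATA3 from siHIF1A was -0.27, -1.32 and -0.17 within slides 1, 2 and 3.

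A second NM_001982 probe gave 11.81, 10.90 and 12.40 in siControl, 10.29, 9.58 and 10.85 in siGATA3 and 10.25, 11.28 and 10.87 in siHIF1A. It had the same order of group means as the brightest probe, with differences of -1.46 in siGATA3 and -0.90 in siHIF1A. By this probe, however, siGATA3 and siHIF1A overlapped, and within slides 1, 2 and 3 they differed by 0.04, -1.70 and -0.02. Their order thus rests on slide 2. The 2 probes had an r of 0.922 over the 9 arrays. The third probe is for NM_001005915, a short transcript that encodes a secreted form of the receptor. It read 8.59, 8.50 and 9.14 in siControl, 8.14, 8.07 and 8.72 in siGATA3 and 7.59, 8.19 and 7.86 in siHIF1A, and was well above background on all 3 siControl arrays, on none of the siGATA3 arrays and on 1 siHIF1A array. For this probe the measured difference from siControl was -0.86 in siHIF1A, without overlap, and -0.43 in siGATA3, with overlap, and most of the knockdown signals lay too near background to rank both groups. The measured siControl mean was 1.35-fold that of siGATA3, which is an estimate and not a lower bound. In RNA of a whole culture, fewer cells that express a gene and less RNA per cell cannot be told apart.

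Over the 9 arrays, the brightest ERBB3 probe had a Pearson r of 0.011 with the leading component. The second NM_001982 probe had -0.308 and the probe of the short transcript had -0.727. The brightest probe had an r of 0.769 with GATA3, which is low on the same siGATA3 arrays by its siRNA. That value restates how ERBB3 was chosen. Among 15683 named genes that exceeded background on every array, the brightest ERBB3 probe was most like DCAF11 (r = 0.959), PDCD1 (0.947), GSN (0.918), TFAP2C (0.914) and LGR4 (0.909). In siGATA3 against siControl these genes had log2 differences of -0.58, -0.48, -0.78, -0.87 and -0.87, whose sign restates their choice by likeness to ERBB3. In siHIF1A against siControl they had -0.35, -0.10, -0.34, -0.20 and -0.53. The most opposite were DHX8 (-0.902), POLR1G (-0.876), BMP8B (-0.848), CCDC88C (-0.828) and LSM1 (-0.828). With 9 arrays in 3 groups, these are the extremes of many correlations and are given as a description. Epithelial markers were also lower in siGATA3 than in siControl by the mean for 5 of 5 genes (median log2 difference -0.60). Over all genes, 24960 of 47720 were lower. Of the 5, KRT19 passed the threshold (-0.72, adjusted P = 1 in limma), where 2.97% of all genes did. Squamous markers were lower for 8 of 10 genes (median -0.27), and 0 passed. The 8 include KRT5 (-0.28), which was above background on 0 of 9 arrays, so its direction is not resolved. DSG3 (0.13), above background on 1 array, is among the 10. The part of the epithelial markers in the ERBB3 difference was not tested.

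EGFR, the receptor for EGF, TGFA and AREG, was measured by 3 probes and overlapped between all groups. The brightest probe, for NM_201282, read 14.77, 15.34 and 16.41 in siControl, 15.08, 14.84 and 16.02 in siGATA3 and 14.70, 15.37 and 15.48 in siHIF1A. The array of slide 3 was the highest in each group. The difference was -0.19 in siGATA3 (SE 0.46), and in siHIF1A it was -0.32 (95% interval -1.34 to 0.70, adjusted P = 0.861). Between siGATA3 and siHIF1A it was 0.13 (-0.89 to 1.14, adjusted P = 0.903). The probe for NM_005228, the full-length receptor, followed it with an r of 0.975. The dim probe for NM_201283, another transcript, did not (r = 0.116), and read between 9.62 and 10.85 over the 9 arrays.

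ERBB2, the receptor that serves as a partner of the other three, was measured by 1 probe spotted 10 times on each array. The mean of its spots was 16.39, 16.30 and 14.65 in siControl, 15.80, 16.23 and 15.14 in siGATA3 and 16.32, 16.47 and 16.51 in siHIF1A. The siHIF1A arrays differed by at most 0.19, while siControl 3 lay below every other array. The siHIF1A mean was 0.65 above siControl (95% interval -0.37 to 1.68, adjusted P = 0.823), and 0.09 above it without siControl 3. All siGATA3 arrays were below all siHIF1A arrays, with a difference of -0.71 (-1.74 to 0.31, adjusted P = 0.481), and siGATA3 had a difference of -0.06 from siControl.

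ERBB4, a receptor for neuregulins and for several EGF ligands, gave a dim signal. Its brighter probe, for NM_005235, read 8.51, 9.15 and 9.30 in siControl, 8.50, 9.03 and 9.69 in siGATA3 and 9.05, 8.90 and 8.84 in siHIF1A, and was well above background on 8 of 9 arrays. The other probe of the same transcript was well above background on none, and read between 7.07 and 8.03. The differences of the brighter probe were 0.09 in siGATA3 and -0.06 in siHIF1A (95% interval -0.80 to 0.68, adjusted P = 0.967), and 0.15 between siGATA3 and siHIF1A (-0.59 to 0.89, adjusted P = 0.837). Groups overlapped in every comparison of this probe.

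**Figure D2:**
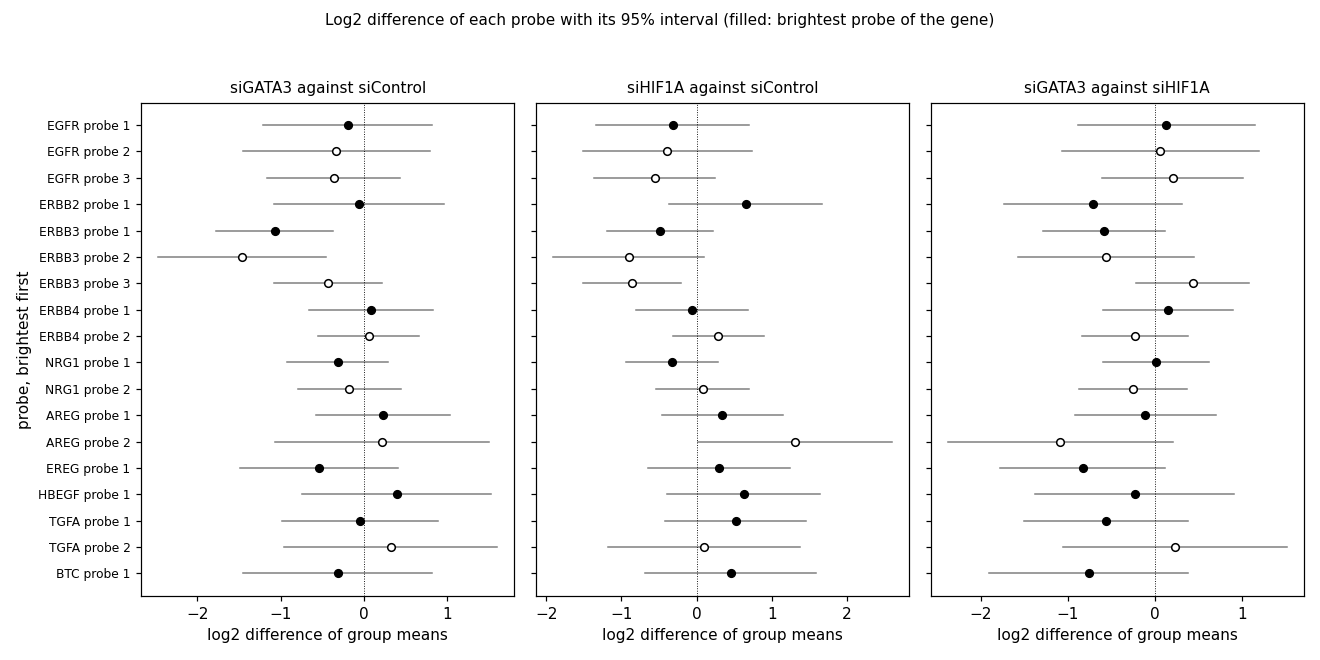
Log2 difference of group means (horizontal axes) for each of the 18 probes (vertical axis), in 3 panels for the 3 comparisons, with bars for the 95% interval and filled points for the brightest probe of a gene. In the siGATA3 against siControl panel the first 2 ERBB3 probes are at -1.07 and -1.46. That contrast chose the members, so its bars are a description and are no test of ERBB3. In the siHIF1A against siControl panel the dim AREG probe is at 1.31 beside 0.34 for the bright one.

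Of the ligands, NRG1, the main ligand of ERBB3, was lower by the mean in both knockdowns but within the spread of the arrays. Its brightest probe, for NM_004495, read 15.60, 15.06 and 14.80 in siControl, 15.15, 14.68 and 14.69 in siGATA3 and 14.73, 14.74 and 15.02 in siHIF1A. The differences from siControl were -0.31 in siGATA3 and -0.33 in siHIF1A (95% interval -0.93 to 0.28, adjusted P = 0.823), and siGATA3 and siHIF1A differed by 0.01 (-0.59 to 0.62, adjusted P = 0.987). A second probe of the same transcript did not follow it over the arrays (r = 0.082), and differed from siControl by -0.17 in siGATA3 and by 0.08 in siHIF1A.

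AREG, the EGFR ligand amphiregulin, had 2 probes for NM_001657 that gave different sizes of change in siHIF1A. The brighter probe read 10.51, 11.08 and 11.24 in siControl, 10.96, 11.17 and 11.39 in siGATA3 and 10.52, 11.91 and 11.42 in siHIF1A. It was 0.34 higher in siHIF1A than in siControl (95% interval -0.47 to 1.15, adjusted P = 0.83), and 0.23 higher in siGATA3. The difference of siGATA3 from siHIF1A was -0.11 (-0.92 to 0.69, adjusted P = 0.89). The dimmer probe read 8.19, 9.06 and 10.07 in siControl, 8.39, 9.26 and 10.33 in siGATA3 and 9.72, 11.00 and 10.50 in siHIF1A. Slide 1 was the lowest in each group for it, and siHIF1A overlapped with siControl. By this probe AREG was 1.31 higher in siHIF1A than in siControl (SE 0.58, adjusted P = 0.828 in limma), which passed the unadjusted threshold, and it was higher within each slide by 1.53, 1.95 and 0.44. This call was kept in 4 of the 9 fits with 1 array left out. With the slide as a block it passed as well (adjusted P = 0.333 in limma). The difference of siGATA3 from siHIF1A by this probe was -1.08, which passed the threshold with the block (adjusted P = 0.174 in limma) and did not pass it without the block (adjusted P = 0.438). Both probes varied together over the arrays (r = 0.769).

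Over all 18 probes, 2 were past the threshold in siGATA3 against siControl, both for ERBB3, where 3.14% of all probes were, and nothing is read from this count since ERBB3 chose the members. In siHIF1A against siControl 2 of 18 passed, the dim AREG probe and the probe of the short ERBB3 transcript, where 5.33% did. The ERBB3 probe shares its siControl arrays with the contrast that chose the members. Between siGATA3 and siHIF1A, 0 of 18 passed, where 12.3% did.

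HBEGF, a ligand of EGFR and ERBB4, was near background and was measured by 1 probe. It read 8.01, 8.25 and 7.85 in siControl, 7.55 and 9.31 on siGATA3 arrays 1 and 3, and 9.26, 8.31 and 8.43 in siHIF1A. Its spot on siGATA3 2 was marked non-uniform and is missing, so siGATA3 has n = 2, and the probe was well above background on 6 of the 9 arrays. All 3 siHIF1A values lay above all 3 siControl values, with a difference of 0.63 (95% interval -0.40 to 1.65, adjusted P = 0.823). HBEGF was the single member without overlap in that comparison, where 13.3% of genes had none. In siGATA3 the difference from siControl was -0.46 on slide 1 and 1.46 on slide 3. Between siGATA3 and siHIF1A the difference was -0.23 (-1.38 to 0.91, adjusted P = 0.832), and without siGATA3 3 it was -1.11. That value rests on siGATA3 1 alone, which was not well above background, so its call in limma assumes that this array varies like the other groups.

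EREG, epiregulin, which binds EGFR and ERBB4, was lower in siGATA3 than in siHIF1A on every slide. It read 14.44, 14.37 and 12.88 in siControl, 13.63, 13.64 and 12.81 in siGATA3 and 14.43, 13.94 and 14.21 in siHIF1A. All siGATA3 values were below all siHIF1A values, while siControl 3 was as low as siGATA3 3. The difference of siGATA3 from siHIF1A was -0.83 (95% interval -1.78 to 0.12, adjusted P = 0.434), which did not pass the threshold, and -0.80, -0.29 and -1.40 within slides. With the slide as a block this passed (adjusted P = 0.244 in limma), so that 1 of 10 members passed, where 18.7% of all genes did. Against siControl, EREG had a difference of -0.54 in siGATA3, with -0.81, -0.72 and -0.07 within slides, and -1.04 without siControl 3. In siHIF1A it was 0.30 higher (-0.65 to 1.25, adjusted P = 0.863), and -0.21 without siControl 3.

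BTC, betacellulin, binds the same receptors as EREG and had nearly the same pattern. It read 14.14, 13.71 and 12.08 in siControl, 13.32, 13.43 and 12.23 in siGATA3 and 13.94, 13.54 and 13.80 in siHIF1A. The siGATA3 arrays were all below the siHIF1A arrays, with a difference of means of -0.76 (95% interval -1.90 to 0.38, adjusted P = 0.491). It was 0.45 higher in siHIF1A than in siControl (-0.69 to 1.59, adjusted P = 0.836), and without siControl 3 this difference was -0.16. Against siControl the difference was -0.31 in siGATA3, and -0.93 without siControl 3.

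TGFA, transforming growth factor alpha, an EGFR ligand, had 2 probes for NM_003236 that moved in opposite directions over the arrays (r = -0.783). The bright probe read 16.62, 16.39 and 14.93 in siControl, 15.87, 16.35 and 15.58 in siGATA3 and 16.62, 16.25 and 16.64 in siHIF1A. The dim probe read 9.31, 9.96 and 11.47 in siControl, 10.37, 9.89 and 11.46 in siGATA3 and 9.73, 10.51 and 10.81 in siHIF1A. The bright probe was at its lowest on siControl 3 and siGATA3 3, where the dim probe was at its highest, so the probes do not give 1 order of TGFA levels. The bright probe was 0.52 higher in siHIF1A than in siControl (95% interval -0.42 to 1.46, adjusted P = 0.823), and without siControl 3 that difference was -0.0047. The difference of siGATA3 was -0.05 from siControl and -0.57 from siHIF1A (-1.51 to 0.37, adjusted P = 0.523). The dim probe was 0.32 higher in siGATA3 and 0.10 higher in siHIF1A than in siControl.

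**Figure D3:**
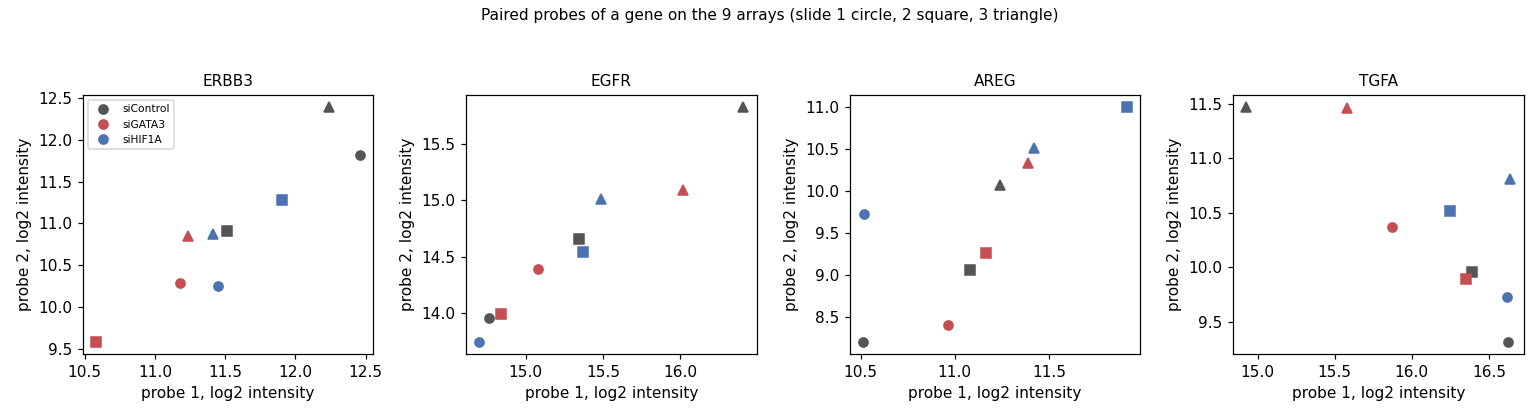
Log2 intensity of the second probe (vertical axes) against the brightest probe (horizontal axes) of ERBB3, EGFR, AREG and TGFA, with 1 point per array, colour for the group and symbol for the slide. The points rise together for ERBB3 (r = 0.922), EGFR (0.975) and AREG (0.769) and fall for TGFA (-0.783).

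The members fell into sets by their pattern over the 9 arrays. ERBB2, EREG, BTC and the bright TGFA probe had pairwise r values between 0.898 and 0.970, and EGFR ran against them (r between -0.867 and -0.764). The same 4 genes had r values of 0.932, 0.947, 0.965 and 0.954 with the leading component, and EGFR had -0.829. Over all genes, 33.6% of 39925 had an r of at least 0.8 in size with this component, so such a value is common on these arrays. By their brightest probes ERBB3 (0.011), HBEGF (0.124), NRG1 (0.332), AREG (-0.366) and ERBB4 (-0.575) did not have one, whereas the second NRG1 probe (0.806) and the dim TGFA probe (-0.825) did. PTPRC, a leukocyte gene not expected in a carcinoma line, had an r of 0.880 with the component, and PDGFRB, a mesenchymal gene, had 0.788. Among other blood markers, CD3E had 0.767, HBB had 0.590 and CD14 had 0.184. In all, 4 of 6 mesenchymal markers had an r above 0 (0.539 for COL1A2 to 0.976 for CDH2), while VIM (-0.714) and FN1 (-0.204) did not. On siControl 3 and siGATA3 3 they read 15.22 and 15.81 (PTPRC) and 15.38 and 15.84 (PDGFRB), while the other arrays lay at or above 16.16. A second PDGFRB probe and 2 of the 5 PTPRC probes were well above background on 0 of 9 arrays, and whether the bright probes are specific to these genes could not be checked. The part of array brightness and of these signals in the ERBB2, EREG, BTC and TGFA values was not tested.

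**Figure D4:**
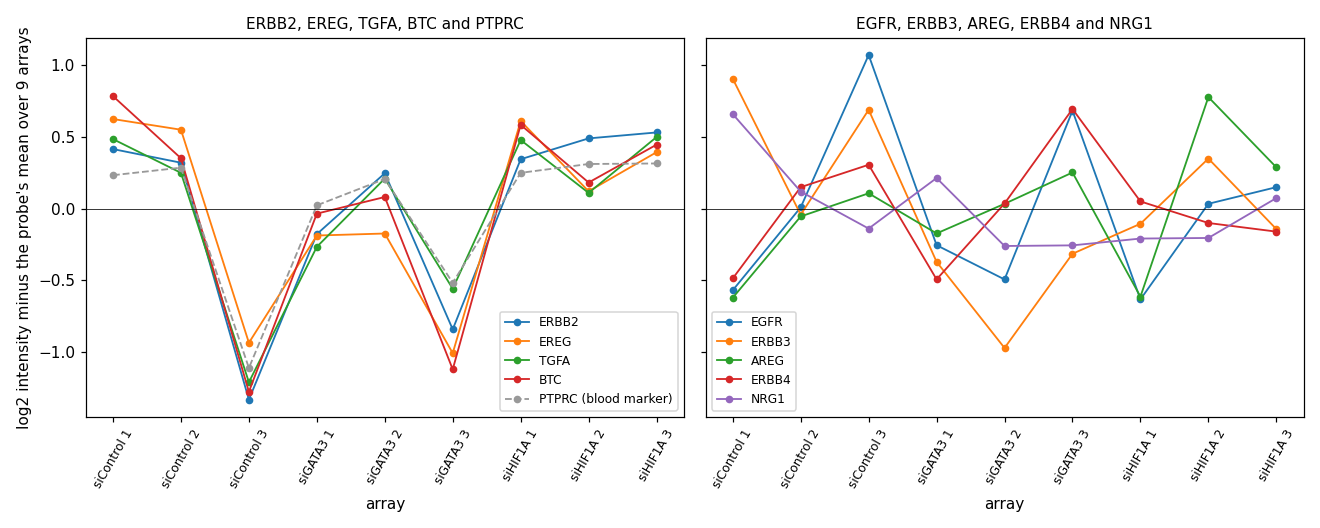
Log2 intensity minus the mean of the probe over the 9 arrays (vertical axes) for each array (horizontal axes), with 1 line per gene. ERBB2, EREG, TGFA, BTC and the blood marker PTPRC dip together on siControl 3 and siGATA3 3 (left), whereas EGFR is highest there and ERBB3 is low on the siGATA3 arrays (right).

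Between siGATA3 and siHIF1A, 4 of the 9 members measured on all arrays of both groups did not overlap (ERBB2, ERBB3, EREG and BTC, all lower in siGATA3), where 22.8% of genes did not. The low siGATA3 values of ERBB3 are those that chose the members, so it is no evidence in this count. Between siGATA3 and siControl it was 1 of 9, ERBB3, where 6.03% of genes had no overlap, and nothing is read from that count. ERBB2, EREG and BTC are of the set that follows the leading component, and without siGATA3 3 their differences between the knockdowns were -0.42, -0.56 and -0.38.

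The genes around the receptors were taken from 5 lists of pathway genes. They are other EGF-family ligands (5 genes), proteins that cut ligands free (12), receptor inhibitors (16), adaptors and kinases (34) and targets of ERK signalling (22). In siGATA3 cells, 4 of 89 genes passed the threshold, 3 higher and 1 lower, where 2.97% of all genes did, 758 higher and 660 lower. The median difference was 0.12, against -0.02 over all genes. ETV5, a transcription factor induced by ERK, read 7.85, 8.11 and 10.76 in siControl and 11.29, 10.39 and 11.93 in siGATA3, overlapping at siControl 3. It was 2.30 higher (SE 0.69), and was well above background on 2 of the 3 siControl arrays. ETV5 was also 1.52 higher in siHIF1A (10.21, 10.32 and 10.74), by 2.36, 2.21 and -0.02 within slides. That difference passed the threshold with the slide as a block and not without it. NEDD4, a ubiquitin ligase that acts on receptors, was 1.09 higher (SE 0.28) and higher within every slide. NRAS, a small GTPase of the RAS family, was 0.85 higher, and 1.40 higher by its other probe. ADAM15, a metalloprotease, had a difference of -0.65, and of -0.60 by its other probe. With 1 array left out, ETV5 and NEDD4 passed in 9 of 9 fits, ADAM15 in 5 and NRAS in 2.

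In siHIF1A cells, 6 of 87 pathway genes passed, 2 higher and 4 lower, where 5.23% of all genes did, 925 higher and 1553 lower. The median difference was -0.05, against -0.01 over all genes. NRG4, a ligand of ERBB4, had a difference of -1.28 (SE 0.32), at 13.51, 13.40 and 13.96 in siControl and 12.60, 11.80 and 12.65 in siHIF1A, with no overlap. EGF, the founding ligand of the family, had a difference of -1.48 (SE 0.61) and was well above background on 7 of 9 arrays. RHBDF2, a rhomboid protein that helps the sheddase ADAM17 mature, had a difference of -1.01. DUSP4, a phosphatase that acts on ERK, was 0.90 higher (SE 0.23), from 13.18 to 13.23 in siControl and from 13.97 to 14.28 in siHIF1A. ETV4, a relative of ETV5, was 0.88 higher. ARAF, a RAF kinase, had a difference of -2.01 by its brightest probe, for NM_001256197, and of -0.10 by its other probe, for NM_001654. With 1 array left out, NRG4, DUSP4 and ARAF passed in 9 of 9 fits, EGF and ETV4 in 5 and RHBDF2 in 2. Adjusted P values in limma were between 0.298 and 1 for the genes named in both comparisons.

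Between siGATA3 and siHIF1A, 13 of 87 pathway genes passed, 12 higher in siGATA3 and 1 lower. Of all genes 12.0% passed, 3282 higher and 2393 lower. With the slide as a block, 10 pathway genes passed in siGATA3 against siControl, 9 of them higher. Of all genes 4.99% passed there, 1375 higher and 1006 lower. In siHIF1A 12 pathway genes passed with the block, 9 of them lower. Of all genes 8.41% passed there, 1479 higher and 2504 lower. The 4 and 6 genes named above were among these pathway genes. Without siControl 3 the pathway count in siGATA3 was 17, where 6006 of all genes passed, against 1418 with all arrays. Without siGATA3 3 it was 2. In siHIF1A it was 16 without siControl 1, where 4798 of all genes passed, against 2478 with all arrays. It was 3 without siHIF1A 1, where 1412 of all genes passed.

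**Figure D5:**
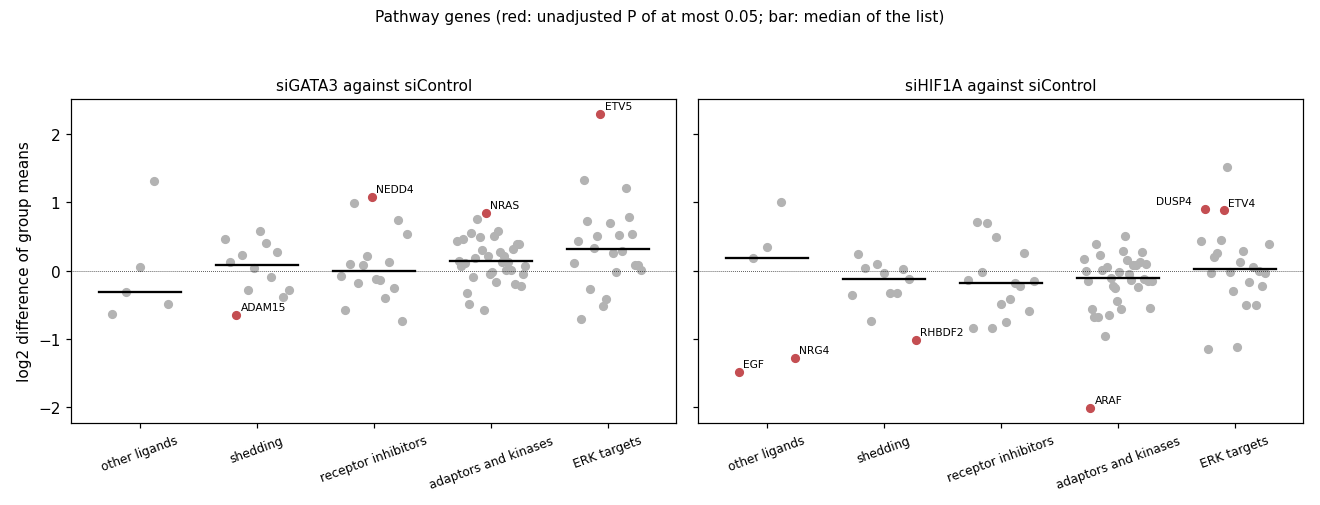
Log2 difference of group means (vertical axes) for the genes of the 5 pathway lists (horizontal axes) in siGATA3 and in siHIF1A against siControl, with red points for genes past an unadjusted P of 0.05 and bars for the list median. In siGATA3, ETV5 stands at 2.30. In siHIF1A, ARAF stands at -2.01 by its brightest probe, whereas its other probe, which is not drawn, had -0.10.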

How the data were processed

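Per the labels, total RNA of OEC-M1 cells was labelled with 1 dye, and the authors deposited 1 Agilent Feature Extraction (10.5.1.1) file per array with spot and background intensity on a linear scale, without scaling across arrays. A table of log2 values by the authors was deposited too. On each array at least 99.81% of them were within 0.001 of the log2 processed signal less 1 constant, which differed between arrays, and column medians lay between -2.4 and -2.07. It served as an alternative.

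In R 4.3.3 with limma 3.58.1, normexp (offset 50) was applied to the median spot and background signals, control spots were dropped, non-uniform spots were set to missing, arrays were quantile normalized, repeat spots were averaged, and each gene took the value of its brightest probe. RefSeq named 31104 of 58201 probes, giving 22439 symbols among 47753 names. Adjusted P values use Benjamini-Hochberg over all genes (lmFit and eBayes, 3 groups in 1 model), and the unadjusted threshold follows the methods of the study. No source says that the 3 arrays of a group are separate cultures, so P values measure only the spread between these arrays, and their number limits the precision.

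The fit was tested on simulated data. The members, the lists and the tests were chosen with earlier results of these data known. Named pathway genes passed the threshold against siControl and exceeded background on every array of at least 1 group, and genes like ERBB3 were the 5 highest and the 5 lowest correlations. The slide is shared by arrays with the same number, per the file headers. Deviations from the group means of arrays on the same slide had correlations between -0.189 and 0.723, so the slide was used as a block in an alternative. Other alternatives were the processed signal, 75th percentile scaling, normexp with no offset, dim probes left out, uncorrected signals, non-uniform spots kept, the mean of probes, trend and robust eBayes, separate fits of the groups, the adjusted P, each array left out, and, added after the data were seen, siControl 3 and siGATA3 3 both left out. The value of 1 blood marker is not reported here.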

Additional observations from a re-analysis of the deposited data

How the results depend on the processing

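ERBB3 was lower in siGATA3 than in siControl under all 12 other settings (log2 difference -1.12 to -0.99) and with any 1 array left out (-1.35 to -0.86). The replicate block left the member counts against siControl as they were. It raised the pathway genes to 10 in siGATA3, where 4.99% of all genes passed, and to 12 in siHIF1A, where 8.41% did. Between the knockdowns it gave 1 member and 2 member probes, where 18.7% of all genes passed. With separate fits of the groups, 2 members (ERBB2 and EREG) and 2 probes passed between the knockdowns. At an adjusted P of 0.05, 0 members, 0 member probes and 0 pathway genes passed against siControl in limma. With the mean of the probes, 1 member (ERBB3) passed in siHIF1A. With the processed signal or the log2 table, 1 member probe passed between the knockdowns. Without siControl 3 and siGATA3 3, 2 members (ERBB3 and EREG) and 10 pathway genes passed in siGATA3, and 2 members (EREG and HBEGF) and 3 probes between the knockdowns. HBEGF then has 1 siGATA3 array, not well above background, assumed to vary like the other groups. ERBB3 chose the members, so its calls in siGATA3 are no evidence. Apart from the block and the adjusted P, counts over all genes are given below only as ranges. Nothing is read from the member and pathway counts of those settings.

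With any 1 array left out, the count of members past the threshold was 1 to 3 in siGATA3, 0 to 1 in siHIF1A and 0 to 3 between the knockdowns. The count of their probes was 2 to 4, 1 to 4 and 0 to 3, and that of pathway genes 2 to 17 in siGATA3 and 3 to 16 in siHIF1A. The 3 members were ERBB3, EREG and BTC in siGATA3, and ERBB2, EREG and BTC between the knockdowns, in both cases without siControl 3. In that fit 6006 of all genes passed in siGATA3, against 1418 with all arrays. Between the knockdowns the count over all genes was 2693 to 9702 with 1 array left out. Nothing is read from these member counts.

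Values that changed sign had not passed the threshold. In siGATA3, ERBB4 became -0.0992 with the processed signal, -0.12 with the log2 table and -0.0604 without siControl 3 and siGATA3 3, HBEGF became -0.25 with the processed signal and -0.58 without those arrays, and TGFA became 0.14 with the mean of its probes. With 1 array left out, EGFR (-0.56 to 0.26), ERBB2 (-0.63 to 0.25), ERBB4 (-0.22 to 0.38), HBEGF (-0.48 to 1.27), TGFA (-0.57 to 0.28) and BTC (-0.93 to 0.10) crossed 0 there. In siHIF1A, ERBB4 became 0.0801 with the processed signal, 0.0857 with the log2 table, 0.11 with the mean of its probes and 0.10 without siControl 3 and siGATA3 3, where EGFR became 0.13, EREG -0.21, TGFA -0.0047 and BTC -0.16. Between the knockdowns, that setting gave EGFR -0.22 and ERBB4 -0.16. ERBB4 became -0.18 with the processed signal, -0.20 with the log2 table and -0.0395 with the mean of probes. NRG1 became -0.0665, -0.0889 and -0.12 under the same settings and -0.0405 with non-uniform spots kept. HBEGF became 0.0361 with 75th percentile scaling after normexp. With 1 array left out, ranges that crossed 0 in siHIF1A were ERBB4 (-0.30 to 0.10), EGFR (-0.69 to 0.13), EREG (-0.21 to 0.57), TGFA (-0.0047 to 0.84) and BTC (-0.16 to 0.87), and between the knockdowns NRG1 (-0.15 to 0.11), HBEGF (-1.11 to 0.65), EGFR (-0.22 to 0.36), ERBB4 (-0.16 to 0.44) and AREG (-0.50 to 0.20). The cause was not tested.

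Over all genes, the count in siGATA3 (1418) was 928 to 3050 under the other settings and 953 to 6006 with 1 array left out, in siHIF1A (2478) 2045 to 3983 and 1412 to 4798, and between the knockdowns (5675) 4770 to 8876 and 2693 to 9702. These ranges leave out the adjusted P, by which 0, 0 and 2 genes passed. ERBB4 and HBEGF lie near the background, so small differences are not resolved there.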
